A study of Mus musculus with 10 samples.

Results

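The expression table of 10 mouse tumors was searched for the genes of the matrix metalloproteinases (Mmp), the ADAM, ADAMTS and ADAMTS-like proteins (Adam, Adamts, Adamtsl) and the tissue inhibitors of metalloproteinases (Timp), by gene name alone. This gave 85 of the 21959 genes in the table: 23 Mmp, 34 Adam, 19 Adamts, 5 Adamtsl and 4 Timp genes. The tumors came from female BALB/c mice, 5 to 6 weeks old when obtained, that had been injected under the skin of the abdomen with 4T1 cells, a mammary carcinoma line of that strain that stands in for triple-negative breast cancer. The exercise group (E, 5 tumors) ran voluntarily on wheels for 21 days without a limit of speed or distance, and the non-exercise group (NE, 5 tumors) was kept under normal husbandry. All 10 mice carried the same injected line, and running was the only difference that the labels name. Each value comes from bulk mRNA of tumor tissue, which holds host cells beside the carcinoma cells. Which part of each tumor was taken is not stated. The comparison asks how the proteases and their inhibitors differed between running and non-running hosts.

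Matrix metalloproteinases are zinc-dependent endopeptidases that cut collagens, proteoglycans and other proteins of the extracellular matrix, and most are made as inactive proenzymes that another protease has to open. ADAMs sit in the cell membrane and release the outer parts of growth factors, cytokines and receptors, whereas ADAMTS enzymes are secreted and process procollagens and matrix proteoglycans. TIMPs bind the active site of these enzymes and block it, so that proteolysis in a tumor depends on protease, activator and inhibitor together. In carcinomas much of this machinery is made by fibroblasts, macrophages and neutrophils and not by the cancer cells, and transcript levels show neither activation nor inhibition of the protein.

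Libraries held 15045613 to 20646763 reads on genes in E and 18706032 to 23092251 in NE. Markers of several cell types set 3 tumors apart. E5 had the highest and NE1 the lowest marker score, which is the mean log2(CPM + 1) over a list with CPM the read count scaled to library size, for the neutrophil (4.37 and 0.833), macrophage (7.77 and 5.85) and fibroblast lists (8.95 and 5.40). NE4 had the highest skeletal muscle score, 11.2, against 0.604 in NE1. Epithelial markers of a mammary carcinoma were low in the tissue labelled mammary cancer. Epcam reached 0.244 to 1.41 FPKM, and Cdh1 reached 1.42 to 4.44 FPKM. Krt5 was listed at 0 in 8 of the 10 tumors, and Krt14 was 30.3 FPKM in NE5 and at most 0.358 FPKM elsewhere. NE5 also had the highest keratinocyte score, 2.39. In bulk tissue, fewer cells of a type and less RNA per cell cannot be told apart, which holds for every level given here.

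Of the 85 genes, 50 had reads in all 10 tumors, 34 reached a mean of 1 FPKM (the deposited unit, a read count scaled to gene length and library size) and 14 a mean of 10 FPKM. No read was counted in any tumor for 18 genes, 15 of them Adam genes (such as Adam2, a sperm surface protein, and Adam7, of the epididymis) and the other 3 Mmp7 (matrilysin), Mmp20 (enamelysin of teeth) and Mmp1a (an interstitial collagenase). A count of 0 is a statement about these depths only: 3 reads, the limit that a count of 0 allows, correspond to 0.130 to 0.199 CPM. The filter on low counts was passed by 46 genes (14 Mmp, 14 Adam, 11 Adamts, 4 Adamtsl and 3 Timp). In 7 of the 46 at least 1 tumor lay under the count limit, and 4 of these 7 met it in all 5 tumors of 1 group only (Mmp3, Adamts15 and Adam23 in E, Adam22 in NE).

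Expression was higher in E for most of the 46 tested genes, but none was called different. Of the 46, 37 had a log2 fold change above 0 and 9 below, while 46% of all 13517 genes tested lay above 0. With limma-trend on log2(FPKM + 1), which carries no TMM scaling, 40 of the 46 members and 56.5% of all genes lay above 0. The median log2 fold change (E minus NE) was 0.25, against -0.01 over all genes. The Mmp genes had a median of 0.36 and the Adamts genes of 0.30, while Adam genes (0.07), Timp genes (0.04) and Adamtsl genes (0.02) lay near 0. The 37 include Mmp3, Adamts15 and Adam23, which met the count limit in all 5 tumors of E only. Of the 40 members with at least 10 reads in every tumor, 30 (75.0%) lay above 0, against 45.3% of all such genes. The median of these 40 was 0.17.

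No member reached both a 2-fold difference and an FDR of 0.05 or less (edgeR, quasi-likelihood test, Benjamini-Hochberg adjusted), nor did any other gene (0% of the genes tested, smallest FDR 0.897). DESeq2 and both limma fits also gave 0 genes past both limits. On the FDR alone DESeq2 had 3 genes at 0.05 or less (smallest FDR 0.000208), of which 0 were members, and the limma fits had 0. At an unadjusted p of at most 0.05 edgeR held 657 genes, 2.57% of all tested as higher and 2.29% as lower in E. Among the members 4 of 46 (8.70%) were in the first class, namely Mmp11, Mmp9, Timp2 and Mmp14, and 0 in the second. In FPKM the groups did not overlap for 0 of the 46 in either direction, against 0.555% of all genes with every E tumor above NE and 0.141% with every E tumor below.

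**Figure D1:**
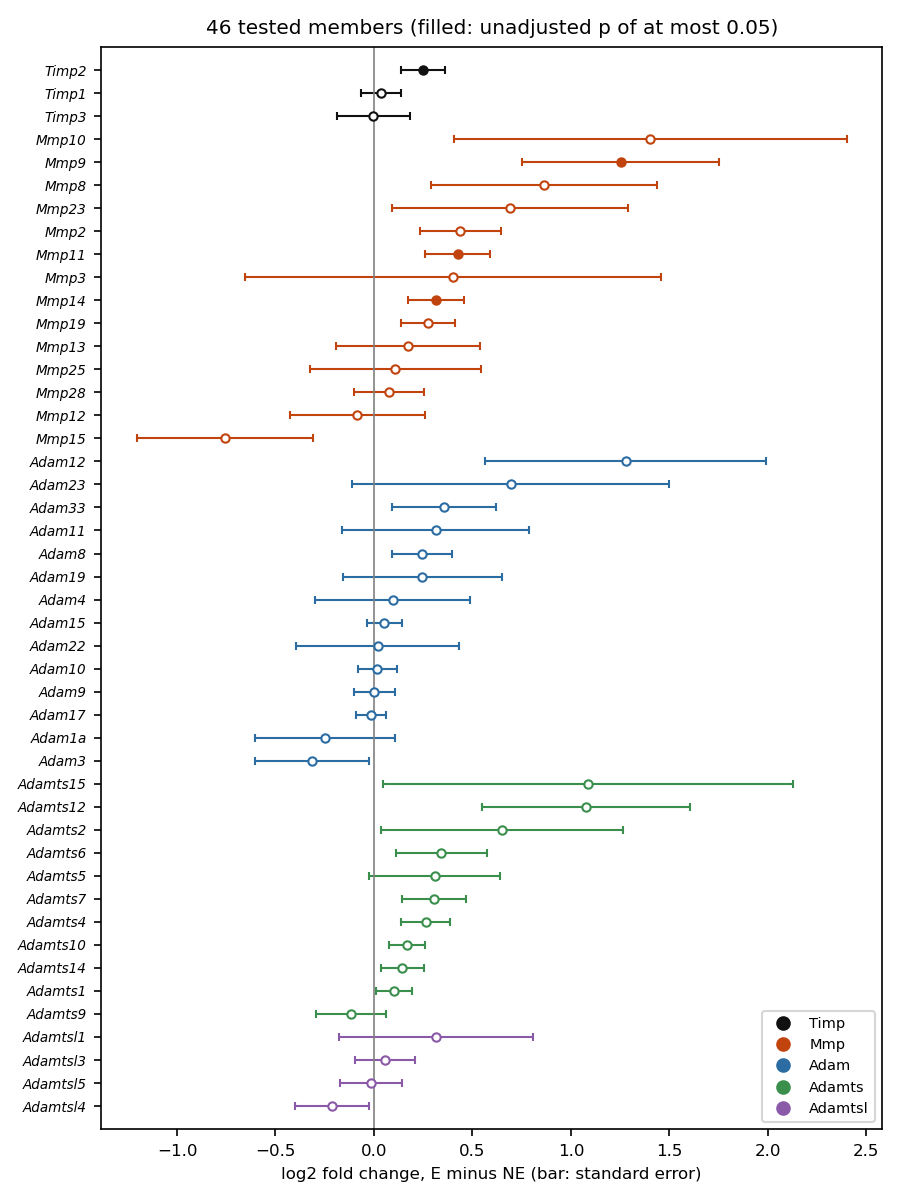
Log2 fold change (E minus NE, x axis) of the 46 tested genes with its standard error as a bar, grouped and coloured by family, with filled points for an unadjusted p of at most 0.05. Points lie right of 0 for 37 genes, the 4 filled points are Timp2, Mmp9, Mmp11 and Mmp14, and the widest bars belong to Mmp3, Adamts15 and Mmp10.

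The size of this pattern depended on single tumors. Without E5, 29 of the 46 tested genes (63.0%) had a log2 fold change above 0, against 45.4% of all genes, and the median of the members was 0.08. E5 was the highest tumor for 22 of the 46 genes but for 11.9% of all genes tested. NE1 was the lowest tumor for 17 and NE4 for 13 of the 46, and these were also the lowest for 20.8% and 22.1% of all genes. With E5, NE1 and NE4 left out together, a comparison added after the data were seen, 31 of 46 members (67.4%) lay above 0, against 51.3% of all genes, with a median of 0.10. In that fit 2 of 46 members (4.35%, Mmp11 and Timp2) had an unadjusted p of at most 0.05 by edgeR's quasi-likelihood test, against 6.69% of all genes. The part that the marker differences of these tumors had in the values of the members was not tested.

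**Figure D2:**
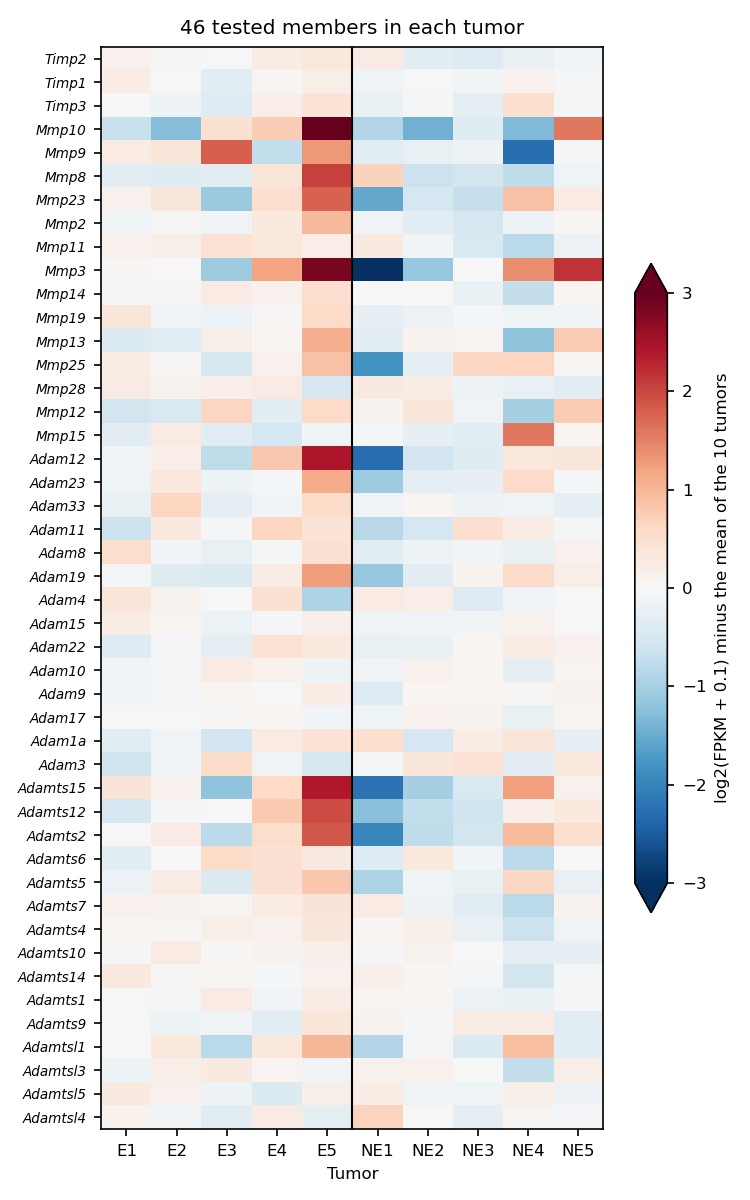
Level of each of the 46 tested genes (rows) in each tumor (columns, E left and NE right of the line), as log2(FPKM + 0.1) minus its mean over the 10 tumors, in a colour scale that ends at 3. The E5 column is red for Mmp10, Mmp3, Adam12, Adamts15 and Adamts2, and the NE1 column is blue for most of the same genes, whereas Adam10, Adam17 and Adam15 are pale throughout.

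The inhibitors were led by Timp1 and Timp2, which made 51.3% and 47.0% of the summed TIMP FPKM over the 10 tumors. Timp1, a secreted inhibitor of most MMPs that acts poorly on membrane-bound ones, measured 163, 136, 110.1, 145 and 159 FPKM in E1 to E5 and 127, 136, 131, 151 and 133 FPKM in NE1 to NE5. The groups lay within the same range, with the lowest and the highest value both in E. Its log2 fold change was 0.04 (SE 0.10) with an unadjusted p of 0.735 in edgeR's quasi-likelihood test.

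Timp2 inhibits MMPs and also takes part in the activation of pro-MMP2, as the bridge between the proenzyme and MMP14. It measured 138, 129.6, 127, 148 and 157 FPKM in E1 to E5 and 149, 102, 95.8, 110.1 and 119.7 FPKM in NE1 to NE5. Each E tumor lay above 4 of the 5 NE tumors, and NE1, the second highest of all, made the groups overlap. The mean was 139.9 ± 12.7 FPKM over the 5 E tumors and 115 ± 20.9 FPKM over the 5 NE tumors (± SD). Its log2 fold change was 0.25 (SE 0.11), at p = 0.0480 before and 0.897 after adjustment in edgeR's quasi-likelihood test, with an exact two-sided permutation p of 0.0635, where 0.00794 is the smallest that 5 against 5 tumors allow. Without NE1 the log2 fold change was 0.36, and without NE3 it was 0.19.

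Timp3, which stays bound to the matrix and also inhibits ADAM17 and the aggrecanases ADAMTS4 and ADAMTS5, was far lower at 3.37 to 5.93 FPKM in E and 3.65 to 6.21 FPKM in NE. The values were intermixed, and its log2 fold change was -0.003 (SE 0.18). Timp4, an inhibitor best known from heart and muscle, did not pass the filter. It was listed at 0 in E1, E5 and NE1, at 0.00823 to 0.1001 FPKM in 6 tumors, and at 0.813 FPKM (110 reads) in NE4, the tumor with the highest skeletal muscle score.

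**Figure D3:**
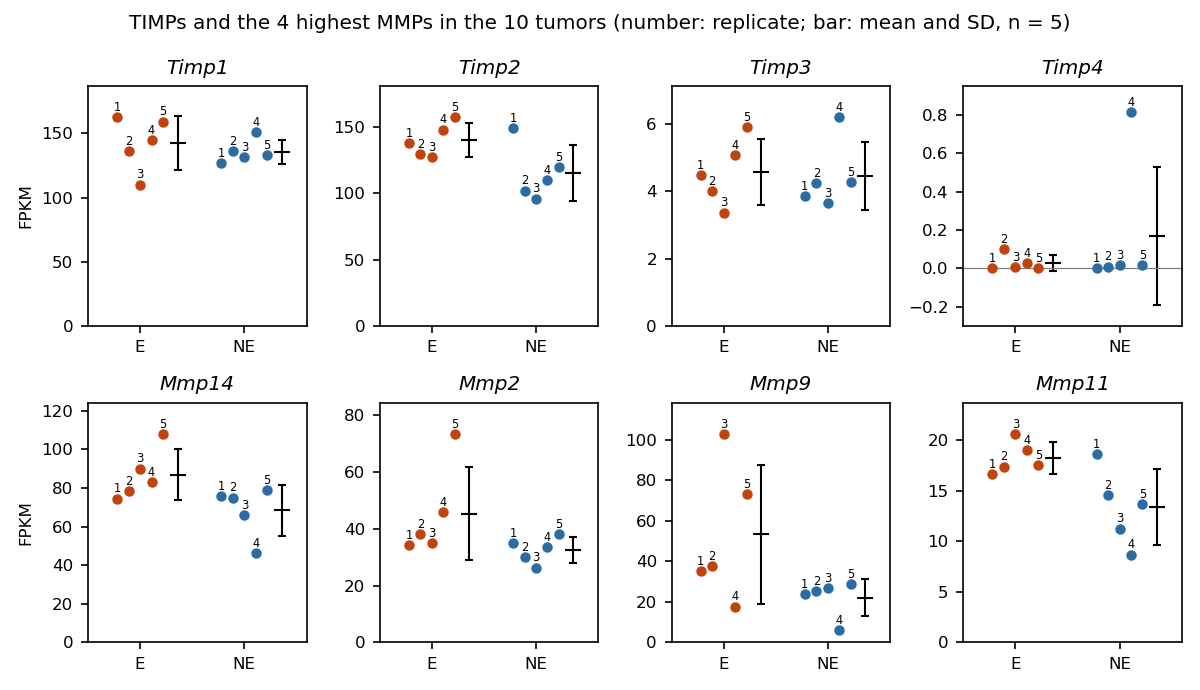
FPKM (y axes, separate scales) of the 4 TIMP genes and the 4 highest MMP genes in each tumor, with the replicate number above each point and the mean and SD (n = 5) as a bar beside each group. Timp1 and Timp3 are intermixed between groups, Timp2 and Mmp11 are higher in E apart from NE1, the Mmp9 points of E spread from 17.7 to 103 FPKM, and Timp4 is near 0 except in NE4.

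Among the proteases the membrane-type enzyme Mmp14 was the highest, with 34.5% of the summed MMP FPKM. MMP14 (MT1-MMP) cuts fibrillar collagen at the cell surface and opens pro-MMP2. It measured 74.5, 78.4, 90.1, 83.0 and 108 FPKM in E1 to E5 and 75.7, 75.0, 65.9, 46.4 and 79.0 FPKM in NE1 to NE5. The highest 3 tumors were all E and the lowest 2 were NE3 and NE4, while E1 and E2 lay among the NE tumors. Its log2 fold change was 0.32 (SE 0.14), at p = 0.0495 before and 0.897 after adjustment in edgeR's quasi-likelihood test, with an exact permutation p of 0.0635. It was 0.23 without E5 and 0.14 with E5, NE1 and NE4 left out.

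Mmp2, gelatinase A, a secreted enzyme that degrades basement membrane collagen, held 17.3% of the MMP sum. It measured 34.1, 38.0, 34.9, 45.8 and 73.3 FPKM in E1 to E5 and 35.0, 29.9, 26.3, 33.6 and 38.1 FPKM in NE1 to NE5. E4 and E5 exceeded every NE tumor, and the remaining E tumors overlapped with NE. Its log2 fold change was 0.44 (SE 0.21) with an unadjusted p of 0.0575 in edgeR's quasi-likelihood test, and 0.20 without E5.

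Mmp9, gelatinase B, which neutrophils store in their granules and macrophages and tumor cells can also make, was the most uneven of the abundant proteases. It measured 35.3, 37.7, 103, 17.7 and 73.0 FPKM in E1 to E5 and 23.8, 25.5, 26.6, 6.06 and 28.6 FPKM in NE1 to NE5. All E tumors but E4 exceeded every NE tumor, E3 was the highest and NE4 the lowest. The mean was 53.3 ± 34.2 FPKM over the 5 E tumors and 22.1 ± 9.14 FPKM over the 5 NE tumors (± SD), so that E stood at 241% of NE.

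That made a log2 fold change of 1.25 (SE 0.50), at p = 0.0302 before and 0.897 after adjustment in edgeR's quasi-likelihood test, with an exact permutation p of 0.111. It was 0.85 (unadjusted p 0.0980) without E3 and 0.59 (unadjusted p 0.171) in limma-voom with sample weights. The share of Mmp9 in the MMP sum ran from 4.32% in NE4 to 35.0% in E3. E3, with the highest Mmp9, had a neutrophil score of 1.07, below the other 4 E tumors and below every NE tumor but NE1.

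Mmp11, stromelysin 3, is a secreted protease that furin activates inside the cell and that is known from the stroma of carcinomas. It measured 16.7, 17.4, 20.6, 19.1 and 17.5 FPKM in E1 to E5 and 18.6, 14.6, 11.2, 8.69 and 13.7 FPKM in NE1 to NE5. E tumors were close together and above every NE tumor except NE1. Its log2 fold change was 0.43 (SE 0.16), at p = 0.0260 before and 0.897 after adjustment in edgeR's quasi-likelihood test, with an exact permutation p of 0.0317. The unadjusted p stayed at or under 0.05 in 15 of 18 other settings, more than for Mmp9 (14), Timp2 and Mmp14 (10 each) or Mmp2 (8). Chchd10 overlaps Mmp11 on the other strand with 6 to 53 reads per tumor, and whether strand was used in counting is not stated.

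Several secreted MMPs lie side by side on chromosome 9. The table places 10 Mmp genes and no other gene from position 7272514 to 7699586, in its own coordinates whose build it does not name, in the order Mmp13, Mmp12, Mmp1b, Mmp3, Mmp1a, Mmp10, Mmp8, Mmp27, Mmp20 and Mmp7. Only 5 of them passed the filter. Many of these genes are textbook targets of AP-1, the Fos and Jun dimer that binds TGANTCA, a motif that reads the same on both strands. The following promoters, each running from 250 bases before to 50 bases after the RefSeq start on the plus strand of GRCm38.p6, are shown because these are the 5 tested genes of the cluster. Capitals mark TGANTCA, at -35 in Mmp13 (chr9:7272264-7272563), -44 in Mmp12 (chr9:7347124-7347423), -46 in Mmp3 (chr9:7445572-7445871) and -63 in Mmp10 (chr9:7502092-7502391) from the start to the first base of the motif, and the window of Mmp8 (chr9:7558179-7558478) holds none. A further RefSeq start of Mmp12, with the window chr9:7344147-7344446, has no motif and is not printed.
Mmp13: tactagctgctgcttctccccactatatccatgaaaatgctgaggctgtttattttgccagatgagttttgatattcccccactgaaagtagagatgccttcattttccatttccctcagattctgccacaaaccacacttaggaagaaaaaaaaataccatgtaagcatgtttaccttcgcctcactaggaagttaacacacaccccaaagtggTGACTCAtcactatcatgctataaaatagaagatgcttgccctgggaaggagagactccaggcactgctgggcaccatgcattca
Mmp12: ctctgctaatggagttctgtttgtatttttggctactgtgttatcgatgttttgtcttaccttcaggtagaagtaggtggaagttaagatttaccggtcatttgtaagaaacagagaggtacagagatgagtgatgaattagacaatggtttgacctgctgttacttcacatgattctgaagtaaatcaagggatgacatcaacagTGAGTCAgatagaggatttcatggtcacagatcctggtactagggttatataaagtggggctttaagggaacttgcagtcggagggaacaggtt
Mmp3: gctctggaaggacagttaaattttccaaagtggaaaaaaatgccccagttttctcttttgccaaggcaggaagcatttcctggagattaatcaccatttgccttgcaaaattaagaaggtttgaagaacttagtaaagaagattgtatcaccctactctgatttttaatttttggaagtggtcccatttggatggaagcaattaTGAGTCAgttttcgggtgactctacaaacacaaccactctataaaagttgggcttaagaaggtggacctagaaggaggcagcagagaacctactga
Mmp10: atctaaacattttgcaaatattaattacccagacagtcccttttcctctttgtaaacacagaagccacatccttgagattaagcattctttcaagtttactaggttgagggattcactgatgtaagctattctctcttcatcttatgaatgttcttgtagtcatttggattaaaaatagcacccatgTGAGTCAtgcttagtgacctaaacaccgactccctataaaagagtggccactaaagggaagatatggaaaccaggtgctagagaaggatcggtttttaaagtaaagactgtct
Mmp8: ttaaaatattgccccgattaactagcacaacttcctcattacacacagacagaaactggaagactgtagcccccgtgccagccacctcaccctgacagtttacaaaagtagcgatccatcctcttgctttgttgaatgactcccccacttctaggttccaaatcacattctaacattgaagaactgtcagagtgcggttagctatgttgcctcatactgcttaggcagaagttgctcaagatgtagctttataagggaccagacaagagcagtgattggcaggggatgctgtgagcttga

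The motif was present in 2565 of the 32851 promoter windows of the RefSeq table (7.81%), in 13 of the 59 windows of members (22.03%, for 13 of the 54 members that the table covers) and for 8 of the 10 genes in the cluster, all but Mmp8 and Mmp27. Among these 8 are Mmp1a, Mmp7 and Mmp20, which had no read in any tumor, and Mmp1b, which had at most 1. A match is a stretch of letters and does not show that a factor binds there. Mmp12, which has the motif, was highest in NE5, E3 and E5, whereas Mmp13, Mmp3 and Mmp10 were highest in E5 and then NE5.

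Mmp13, collagenase 3 and the main interstitial collagenase of rodents, measured 9.17, 9.57, 13.8, 12.6 and 25.8 FPKM in E1 to E5 and 9.61, 13.1, 13.0, 5.23 and 20.7 FPKM in NE1 to NE5. Mmp3, stromelysin 1, which cuts proteoglycans and opens other pro-MMPs, measured 6.51, 6.40, 2.96, 14.5 and 45.4 FPKM in E1 to E5 and 0.0481, 2.82, 6.21, 16.9 and 28.8 FPKM in NE1 to NE5. E5 was highest and NE5 second for both genes. NE1 held 2 reads of Mmp3 and E5 held 1229, and 8.39% of the 50-base stretches of the Mmp3 transcripts also occur in Mmp10 or Gm15244, so that a few reads may be shared.

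Mmp10, stromelysin 2, measured 0.338, 0.187, 0.845, 1.06 and 5.91 FPKM in E1 to E5 and 0.277, 0.155, 0.434, 0.177 and 1.98 FPKM in NE1 to NE5, again with E5 and NE5 on top. Mmp8, the collagenase of neutrophil granules, was between 0.377 and 1.20 FPKM in 9 tumors and 3.23 FPKM in E5, with NE1 as the second highest. Mmp12, the macrophage metalloelastase, measured 6.02 to 13.9 FPKM in E and 4.40 to 15.2 FPKM in NE, with NE5 highest and NE4 lowest. None of these 5 genes had an unadjusted p of at most 0.05 in edgeR's quasi-likelihood test, and the standard errors of their log2 fold changes, 0.34 for Mmp12 to 1.06 for Mmp3, were wide beside the values themselves (-0.08 for Mmp12, 0.17 for Mmp13, 0.40 for Mmp3, 0.86 for Mmp8 and 1.40 for Mmp10).

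**Figure D4:**
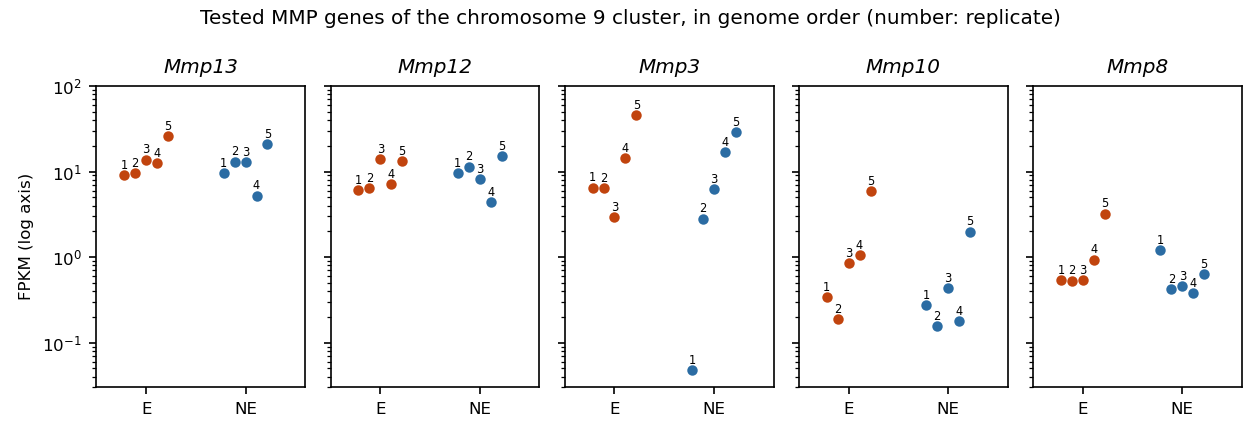
FPKM (log axis, shared) of the 5 tested MMP genes of the chromosome 9 cluster in genome order, with 1 point per tumor and the replicate number above it. Replicate 5 of E is the top point for Mmp13, Mmp3, Mmp10 and Mmp8, replicate 5 of NE is second for Mmp13, Mmp3 and Mmp10, and Mmp3 of NE1 lies far below the other tumors at 0.0481 FPKM.

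The other tested MMPs were lower. Mmp19 stood at 7.77 to 13.2 FPKM in E and 7.45 to 8.42 FPKM in NE. Mmp28 (epilysin), Mmp25 (a GPI-anchored enzyme of leukocytes) and Mmp23 had means of 1 to 3 FPKM, and the tumor-to-tumor range was 12.6-fold for Mmp23 but 1.77-fold for Mmp19 and Mmp28. Mmp15, the membrane-type MT2-MMP, had the lowest log2 fold change of all members, -0.76 (SE 0.45, unadjusted p 0.120 in edgeR's quasi-likelihood test), with 1.68 FPKM in NE4 and 0.310 to 0.606 FPKM in the other 9 tumors.

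Set against each other, the summed MMP FPKM ran below the summed TIMP FPKM in most tumors. The 23 Mmp genes summed to 263 ± 79.9 FPKM in E and 186 ± 36.6 FPKM in NE, and the 4 Timp genes to 287 ± 32.2 and 256 ± 19.5 FPKM (SD, n = 5 each). The ratio of the sums was 0.664, 0.781, 1.22, 0.736 and 1.21 in E1 to E5 and 0.666, 0.773, 0.754, 0.523 and 0.940 in NE1 to NE5. By FPKM only E3 and E5 had more MMP than TIMP transcript, and the other E tumors lay among NE, so that the groups overlapped.

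The mean ratio was 0.923 ± 0.272 in E and 0.731 ± 0.153 in NE, given as a description without a test because it sums over chosen genes. Without Mmp9, left out after its values had been seen, it was 0.729 ± 0.168 and 0.643 ± 0.122. The E3 ratio was then 0.796 in place of 1.22 and the E5 ratio 0.985 in place of 1.21. No tumor then had more MMP than TIMP transcript by FPKM. By read counts instead of FPKM, which weights long transcripts more, the means were 1.58 and 1.36. With all Mmp genes, MMP reads outnumbered TIMP reads in every tumor but NE4 (ratio 0.947), so that the order of the sums depended on the measure. The ADAM and ADAMTS transcripts together stood at 0.832 ± 0.0710 of the TIMP sum in E and 0.845 ± 0.119 in NE.

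**Figure D5:**
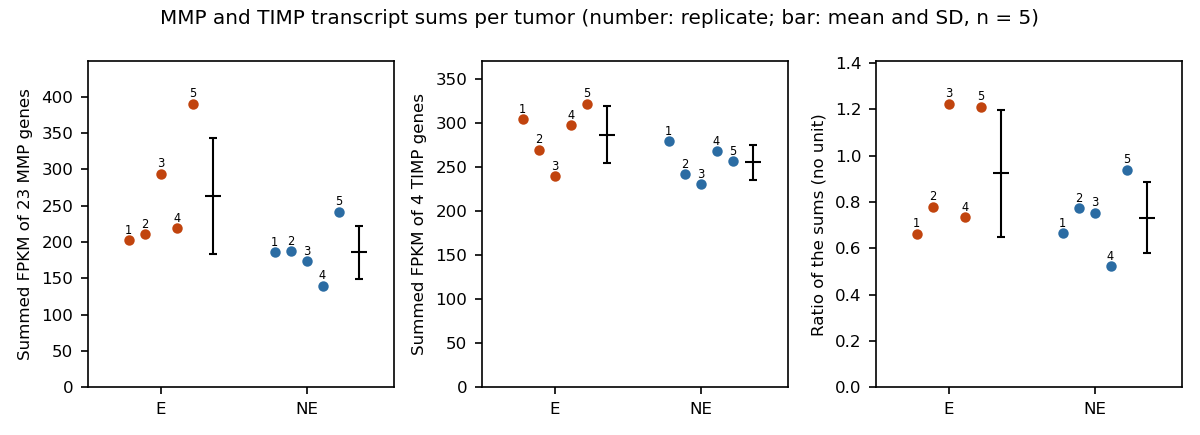
Summed FPKM of the 23 MMP genes, summed FPKM of the 4 TIMP genes and the ratio of the sums (no unit) in each tumor, with the replicate number above each point and the mean and SD (n = 5) as a bar. The ratio exceeds 1 in E3 (1.22) and E5 (1.21) only, and the lowest ratio is that of NE4 (0.523).

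The ADAM sum was carried by 4 membrane proteases, Adam10, Adam8, Adam9 and Adam17, that together made 92.0% of it. Adam10, Adam17 and Adam9 had close group means, whereas Adam8 varied more (1.81-fold over all tumors). Adam10, the main protease that cuts Notch receptors at the cell surface, ranged from 36.6 to 52.5 FPKM over all tumors (1.44-fold) with group means of 45.2 ± 5.17 in E against 43.8 ± 4.87 in NE (SD, n = 5 each). Adam17, the TNF-converting enzyme, ranged from 28.0 to 35.8 FPKM (1.28-fold) with means of 33.1 ± 1.21 and 32.8 ± 3.57 FPKM. For Adam9 the range was 30.1 (NE1) to 45.4 FPKM (E5). Their log2 fold changes were 0.02 (SE 0.10) for Adam10, -0.02 (SE 0.07) for Adam17 and 0.0015 (SE 0.11) for Adam9, and the groups were intermixed for all 3.

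Adam8, a protease of leukocytes, measured 58.8, 38.4, 34.8, 38.7 and 55.1 FPKM in E1 to E5 and 32.5, 36.4, 37.9, 35.2 and 44.0 FPKM in NE1 to NE5. E1 and E5 were above all NE tumors, the other 3 among them. Its log2 fold change was 0.25 (SE 0.15, unadjusted p 0.139 in edgeR's quasi-likelihood test). Adam15 lay between 7.15 and 9.39 FPKM in every tumor.

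Lower ADAMs varied more. Adam12, an ADAM made by activated fibroblasts and muscle precursors and named here after its values were seen, had 0.115 FPKM in NE1 and 5.53 FPKM in E5 with all other tumors between 0.523 and 1.75 FPKM. Adam23, an ADAM without an active protease site, had no read in NE1 and 0.360 FPKM in E5. Of the 14 tested Adam genes, 0 had an unadjusted p of at most 0.05 in either direction by edgeR's quasi-likelihood test.

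Among the ADAMTS enzymes 3 process the ends of fibrillar procollagens, and Adamts14 of these was the highest with 34.9% of the family sum. It measured 17.9 to 23.1 FPKM in E and 12.8 to 20.9 FPKM in NE, a 1.81-fold range. Adamts2, of the same function, measured 2.60, 3.17, 1.49, 3.82 and 9.92 FPKM in E1 to E5 and 0.603, 1.52, 1.76, 5.20 and 3.72 FPKM in NE1 to NE5, a 16.5-fold range with E5 on top and NE1 at the bottom, as for the fibroblast list. Adamts3 did not pass the filter.

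Of the enzymes that cut aggrecan and versican, Adamts4 measured 9.81 to 12.0 FPKM in E and 6.04 to 10.6 FPKM in NE. Its log2 fold change was 0.26 (SE 0.13, unadjusted p 0.0617 in edgeR's quasi-likelihood test), and NE4 was lowest. Adamts1 lay between 6.68 and 9.13 FPKM in all tumors, with group means of 8.09 ± 0.904 in E against 7.38 ± 0.661 in NE (SD, n = 5 each). Adamts15 had no read in NE1 and 2.37 FPKM in E5.

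Adamts7, which cuts cartilage oligomeric matrix protein, measured 5.19 to 6.38 FPKM in E and 2.74 to 5.78 FPKM in NE (log2 fold change 0.30, SE 0.16). Tbc1d2b overlaps Adamts7 on the opposite strand with 830 to 1320 reads per tumor, against 395 to 838 for Adamts7, and whether strand was used in counting is not stated. Adamts12, its close relative and also named after its values were seen, reached 4.08 FPKM in E5 and 0.353 to 1.78 FPKM elsewhere. The ADAMTS sum was 59.4 ± 8.16 FPKM in E and 49.1 ± 4.29 FPKM in NE, and it ran from 54.4 to 74.0 FPKM in E and from 42.5 to 52.6 FPKM in NE, without overlap. It is given without a test, as a sum over chosen genes. FPKM hold no TMM factor, which was 1.02 in E2, the lowest of E, and 0.992 in NE2, the highest of NE. Scaling by that factor would close most of the gap between the groups. By edgeR's quasi-likelihood test 0 of the 11 tested Adamts genes had an unadjusted p of at most 0.05.

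The ADAMTS-like proteins resemble ADAMTS enzymes but have no protease domain, and they belong to the matrix itself. Adamtsl3 made 72.8% of their sum, at 12.1 to 16.3 FPKM in E and 8.14 (NE4) to 15.1 FPKM in NE. Adamtsl4 stood at 2.59 ± 0.475 in E and 2.95 ± 0.831 FPKM in NE, and Adamtsl5 at 1.89 ± 0.365 and 1.87 ± 0.258 FPKM. The sums were 19.0 ± 1.26 and 18.4 ± 2.83 FPKM (SD, n = 5 each), within each other's spread.

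Genes that act with the proteases were counted in the same way, beside 2.57% of all genes higher and 2.29% lower. Of 15 tested activators and cofactors 3 were higher and 0 lower at an unadjusted p of at most 0.05 in edgeR's quasi-likelihood test. These were Plau and Plat, the urokinase and tissue activators of plasminogen, and Tspan17, a tetraspanin that escorts ADAM10. Plau measured 87.6 to 127 FPKM in E and 62.6 to 91.3 FPKM in NE, with a log2 fold change of 0.32 (SE 0.12, unadjusted p 0.0234 in that test). Plat had 0.38 (SE 0.13) and Tspan17 0.20 (SE 0.09). The median log2 fold change of the list was 0.11. Plg, the plasminogen that Plau and Plat open, was listed at 0 in every tumor, and Furin had 0.16 (SE 0.09).

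Of 10 tested inhibitors and clearance proteins outside the TIMP family 2 were higher and 0 lower by the same threshold. Tfpi2, a serine protease inhibitor, measured 2.22 to 11.8 FPKM in E and 0.273 to 2.97 FPKM in NE (log2 fold change 1.37, SE 0.62). Thbs1, a matrix protein that binds MMP2 and MMP9 and hands them to the receptor Lrp1, measured 95.1 to 157 FPKM in E and 42.1 to 109 FPKM in NE (0.52, SE 0.22). Reck, a membrane-anchored MMP inhibitor, stood at 0.560 ± 0.335 in E against 0.494 ± 0.376 FPKM in NE (SD, n = 5 each).

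Of 21 cell surface proteins that ADAMs can shed, 1 was higher and 0 lower. Notch2, cut by ADAM10, measured 19.10 to 21.9 FPKM in E and 17.1 to 18.93 FPKM in NE, with a log2 fold change of 0.15 (SE 0.05). Its groups did not overlap, as for 0.555% of all genes with every E tumor above NE. The lowest E and the highest NE value lay close together, and FPKM hold no TMM factor (0.951 in NE4 to 1.02 in E2). Tnf, the namesake substrate of ADAM17, stood at 5.81 ± 1.91 and 4.78 ± 1.40 FPKM. Of 12 tested matrix substrates, 1 was higher and 0 lower: Sparc, a collagen-binding glycoprotein, at 610 to 976 FPKM in E and 533 to 631 FPKM in NE (log2 fold change 0.27, SE 0.12). Col1a1, the main fibrillar collagen, ran from 15.4 FPKM in NE1 to 596 FPKM in E5 (1.31, SE 0.72). None of the genes in these lists passed the FDR threshold in edgeR's test after Benjamini-Hochberg adjustment.

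Because fibroblasts, macrophages and neutrophils are known sources of these proteins, 8 pairs of a member and a marker list were compared across the 10 tumors. Mmp2 and the fibroblast list had a Pearson r of 0.72 (permutation p 0.0276, adjusted 0.110) and a Spearman rho of 0.70 (permutation p 0.0311, adjusted 0.0923). Timp3 and the fibroblast list had an r of 0.72 (permutation p 0.0168, adjusted 0.110) and a rho of 0.81 (permutation p 0.00677, adjusted 0.0542). None of the 8 passed an adjusted p of 0.05 by r or by rho. Without E5 and NE1, the tumors farthest from the median score, r was 0.65 for Mmp2 and 0.74 for Timp3. Without NE1 alone the r of Mmp2 was 0.88 (exact permutation, adjusted p 0.0344), and without E5 alone 0.42.

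Within E the r of Mmp2 was 0.97 and within NE 0.24, over 5 tumors each and without a test. For Timp3 the values were 0.87 and 0.70. Mmp14 and Timp2 had an r of 0.20 with the same list, which became -0.45 and 0.37 without the 2 tumors. Fibroblast markers were detected for 8 of 8 genes, with a summed level of 2243 to 15522 CPM in E and 1030 to 5044 CPM in NE, and no marker at 0.

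For the neutrophil list, with 8 of 8 genes detected and a summed level of 13.8 to 345 CPM in E and 9.26 to 52.6 CPM in NE, Mmp8 had an r of 0.70 (permutation p 0.0901, adjusted 0.180) and a rho of 0.08. It rested on E5, since r was -0.45 without E5 and 0.0026 without E5 and NE1. Mmp9 had an r of 0.11 (permutation p 0.690, adjusted 0.690) and a rho of -0.09, and without these 2 tumors r was -0.88 (exact permutation p 0.0122, adjusted 0.0940). The defining marker Ly6g did not exceed 0.374 FPKM in any tumor, and S100a8 was 101 FPKM in E5 and at most 6.28 FPKM in the others.

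For the macrophage list, with 8 of 8 genes detected and no marker at 0, Adam8 had an r of 0.64 (permutation p 0.0507, adjusted 0.135) and a rho of 0.68 (permutation p 0.0346, adjusted 0.0923), with r 0.36 without E5 and NE1. Mmp12, in spite of its name, had an r of -0.17 (permutation p 0.673, adjusted 0.690) and a rho of -0.28, and -0.67 without the 2 tumors. The share of each cell type in the level of a gene was not tested.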

How the data were processed

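The data were mRNA libraries of 10 tumors, grouped by their labels, 1 tumor per mouse. By the study's methods alignment by the authors used Hisat2, and Stringtie gave the expression values. The genome they name is a rat build (Rnor 6.0) while the table lists mouse genes, and its build is not given in the sources used here. The authors deposited read counts, which are not normalized, and FPKM values, which equal the count per length and column total (largest relative deviation 3.78e-14) and so hold no TMM factor. Total counts per tumor were 15045613 to 23092251, and limits from counts cover counting error only.

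The counts were tested by the quasi-likelihood test of edgeR 4.0.16 (R 4.3.3) after TMM normalization and its default low-count filter by group, with p-values of 13517 genes adjusted by Benjamini-Hochberg. A call needed a 2-fold difference and an FDR of 0.05 or less. Single members were compared by exact two-sided permutation tests, and relations with marker scores by 100000 permutations with adjustment over 8 relations, in numpy 2.4.6. A marker score is the mean log2(CPM + 1) over a list with the TMM factor. The alternatives were library size without TMM, DESeq2 1.42.0, limma 3.58.1 (voom with sample weights, and trend on log2(FPKM + 1)), other filters, the replicate block and leaving out each tumor. The scripts were tested on simulated data.

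The members and lists were chosen with earlier results of these data known. Named genes are all Timp genes, the highest of each family by mean FPKM (6 Mmp, 5 Adam, 5 Adamts, 3 Adamtsl), members with an unadjusted p of at most 0.05, the 3 members with the widest range and those of the 8 relations. Mmp10, Mmp15, Mmp19, Mmp23, Mmp25, Mmp28, Adam12 and Adamts12, and the other genes named outside these, were named after their values were seen. Promoter sequences are from RefSeq (GRCm38.p6), overlaps and shared 50-base stretches from GENCODE M21 (GRCm38), and no coordinate was converted.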

Additional observations from a re-analysis of the deposited data

Results flagged for a closer look

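In 15 of 72 groups of 5 tumors, the highest or the lowest tumor stood further from its neighbour than Dixon's 95% limit. Among these, 7 were E5: it was the high tumor in E for Mmp13 (25.8 FPKM), Mmp3 (45.4 FPKM), Mmp8 (3.23 FPKM), Adamts2 (9.92 FPKM), Adamts15 (2.37 FPKM), Adam23 (0.360 FPKM) and the neutrophil score (4.37). NE4 was the high tumor in NE for Timp3 (6.21 FPKM) and Timp4 (0.813 FPKM) and the low tumor for Mmp9 (6.06 FPKM) and Adamtsl3 (8.14 FPKM). NE1 was the low tumor in NE for Adam9 (30.1 FPKM) and the macrophage score (5.85). E2 was the high tumor in E for Timp4 (0.1001 FPKM), and NE5 in NE for the keratinocyte score (2.39). The tumors are the same in many of these because the genes were measured in the same libraries, so that the 15 are not independent of each other. Independent, normally distributed values would give about 3.6 of 72. Mmp3, Adamts15 and Adam23 were named for their wide range, so that part of the excess over 3.6 was fixed by that choice.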

How the results depend on the processing

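No gene passed both limits, fold and FDR, in the 18 other settings. Only DESeq2 had genes under the FDR limit alone (3, none a member). The number of members with an unadjusted p of at most 0.05, 4 in edgeR's quasi-likelihood test, was 7 with DESeq2, 7 with the replicate block (Mmp2, Adamts12 and Mmp10 in addition), 5 with limma-voom weights (Adam3 lower), 2 with E5, NE1 and NE4 left out, and 1 to 6 when each tumor was left out in turn, with 1 without E4 (Mmp9), without E5 (Mmp11) and without NE3 (Mmp9). All genes at that p, 657 in edgeR, were 800, 714, 1800, 912 and 372 to 1350 in the same settings. The share of members was 15.2% against 5.92% of all genes with DESeq2 and 15.2% against 5.28% with the block. It lay below that of all genes with limma-voom weights (10.9% against 13.3%) and with E5, NE1 and NE4 left out (4.35% against 6.69%). The same held without E4 (2.17% against 4.04%), E5 (2.17% against 2.73%) or NE3 (2.13% against 2.94%). Without any other single tumor it lay above. The study's text speaks of matched pairs, but neither the labels nor its methods tie a number to a pair, and the numbers were not taken to pair the tumors: the correlation of same-numbered tumors ran from -0.325 to 0.316, and only number 5 correlated best with its own. The mean MMP to TIMP ratio moved to 1.58 (E) and 1.36 (NE) by read counts and to 0.619 and 0.462 without Mmp14, and E stayed above NE in each. Each of these E means includes E3 and E5. In the main ratio E1, E2 and E4 (0.664, 0.781 and 0.736) lay within the range of NE (0.523 to 0.940).

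Of the 8 relations, r of Mmp9 and of Mmp14 became -0.882 and -0.449 without the 2 tumors farthest from the median. Leaving out each tumor gave a range of r from -0.453 (without E5) to 0.880 for Mmp8, -0.656 (without E5) to 0.358 for Mmp9, -0.363 to 1.48e-05 (without NE4) for Mmp12, 0.416 (without E5) to 0.882 for Mmp2 (adjusted p at or under 0.05 without NE1), -0.288 (without E5) to 0.645 for Mmp14 and -0.150 (without E5) to 0.608 for Timp2. Of 465 log2 fold changes of named members under other settings 413 kept their sign and 52, in 11 members, did not. The causes were not tested. Depth limits the members with few reads, such as Timp4 and Mmp10.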
